A study of Mus musculus with 8 samples.

Results

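The genes examined here encode the mitochondrial enzymes of fatty acid oxidation, together with the carnitine shuttle that feeds them and the related steps for branched-chain and odd-chain acyl groups. They were chosen by gene name, in the current or an older spelling, from a list of 31 genes. Of these, 29 had at least 1 probe among the 16593 gene symbols on the array, and 27 had a probe that could be tested. RNA of whole perigonadal white adipose tissue (pgWAT) was hybridised to 8 bead arrays (Illumina MouseRef-8 v2.0), 5 labelled Con and 3 labelled FKO. All mice were males, of strain B6 by the labels and with a C57BL/6J Cre line in the methods, that carried a floxed allele of Ogt, which encodes O-GlcNAc transferase, and all had been given a high-fat diet for 3 days. FKO mice also carried Adiponectin-Cre, which is active in adipocytes, so other cells of the fat pad keep the gene, whereas the Con littermates had no Cre. Both groups were 15 weeks old by their labels. The figure legends give the same group sizes as the labels, whereas the text of the methods has them the other way round, and the labels were followed.

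Fatty acids enter mitochondria as acylcarnitines and are then shortened by a repeating cycle of oxidation, hydration, further oxidation and thiolysis, with a separate set of acyl-CoA dehydrogenases for each chain length. The dehydrogenases pass their electrons through the electron transfer flavoprotein to the respiratory chain. White adipose tissue stores and releases fatty acids more than it burns them, and many genes of the pathway are known targets of the nuclear receptors PPARα and PPARγ.

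The Ogt values of Con and FKO overlapped. With probe ILMN_2611676, its intensity in arbitrary units was 188, 264, 199, 232 and 267 in Con and 296, 177 and 260 in FKO. Here and below, values stand in the order of the replicate numbers, Con 1 to 5 and FKO 1 to 3. Intensities are as deposited, whereas log2 fold changes, log2 ranges and tests use background-corrected and re-normalized values. The log2 fold change of FKO over Con was 0.08 (± 0.23 SE, two-sided exact permutation p = 0.768). The other probes gave 0.01 and −0.04, each with an exact permutation p of 0.946, and the position of the probes relative to the deleted exons was not settled. Con 1, Con 3 and FKO 2 were the lowest arrays for all 3 probes. Groups are therefore groups of labels, and each direction below is one between labels, which the Ogt values do not back.

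The 9 adipocyte markers with a probe were above background on all arrays, and their summed intensity was 43361 to 49944 in Con and 37314 to 44774 in FKO, lowest on FKO 3. The sum of 15 nuclear genes of general mitochondrial content, such as respiratory chain subunits, was 46838 to 48958 in Con and 46887 to 49485 in FKO. Markers of the epididymis, the neighbouring organ, summed to 1237 to 2046 in Con and to 8756, 1212 and 15518 in FKO, with 3 of 12 genes above background on all arrays and 5 on none. Sums of macrophage markers were 13636 to 18507 in Con and 12950 to 16296 in FKO, and those of endothelial markers 2620 to 3898 and 2195 to 4319. With the brightest probe, all 6 tested macrophage markers had a negative log2 fold change. So did 8 of 9 adipocyte markers, 5 of 7 endothelial markers and 56.6% of all genes. A dimmer probe of the macrophage marker Adgre1, ILMN_2847787, was at 0.05. Cd163 lay at 303 to 393 in Con and 231 to 301 in FKO, without overlap. Erythroid markers summed to 8381 to 12868 in Con and 12753 to 13674 in FKO, with Alas2, the first enzyme of haem synthesis in these cells, at 166 to 211 and 234 to 284 without overlap. Over all genes tested the groups did not overlap in 2.66%, and no marker was called in the test below. Brown and beige adipocyte markers summed to 1077 to 1929 and 1279 to 1367, with 3 of 8 genes above background on all arrays. Of these, Ucp1, the uncoupling protein, exceeded background on 2 arrays. The part of these markers in the results below was not tested. In whole tissue, fewer cells of a type and less RNA per cell cannot be told apart.

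No gene of mitochondrial fatty acid oxidation passed the test between FKO and Con. With limma, 0 of 27 tested genes were called at an adjusted p under 0.05, where 0% of the 9652 genes tested in all were called. At an unadjusted p under 0.05 there was 1 gene, Hadhb, which was lower in FKO, against 4.68% of all genes (2.15% lower and 2.53% higher) and 4.27% of all probes. The methods' t-test (p under 0.01 and fold above 1.5), run here on the same corrected log2 values as limma, called 0 of the members and 0.00721% of the 13877 probes tested. The study ran its test on its own quantile-normalized intensities, so this is not a repeat of it. At these cut-offs the study reported genes changed in both directions. It named fatty acid metabolism among the programs suppressed in FKO. Why the outcomes differ was not tested. Con and FKO values overlapped for all 27 genes, whereas the groups did not overlap in 2.66% of all genes. The log2 fold change was positive for 11 members and negative for 16, with a median of −0.03 and a range from −0.30 for Hadhb to 0.11 for Ivd. Over all genes 56.6% were negative and the median was −0.02.

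**Figure D1:**
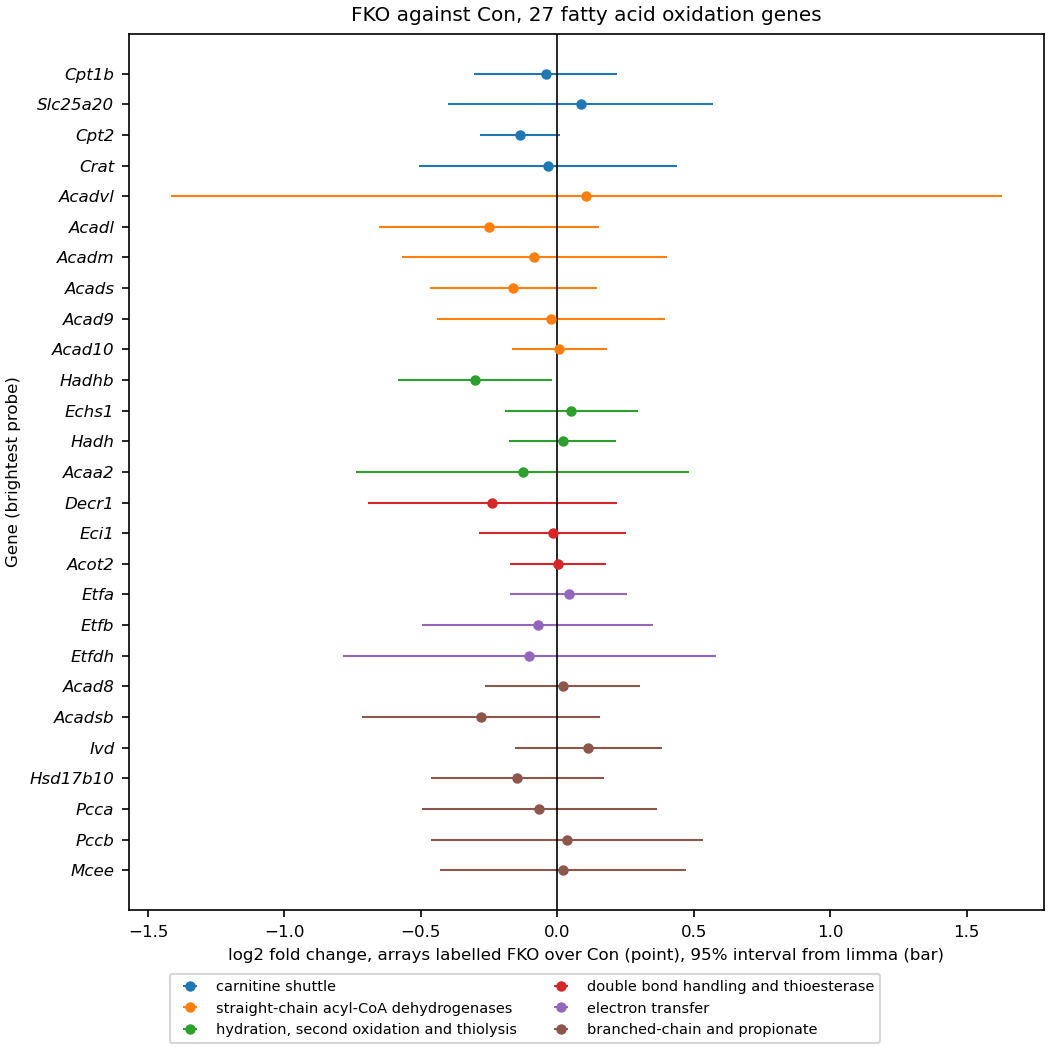
Log2 fold change of the arrays labelled FKO over those labelled Con for each of the 27 genes tested (points, brightest probe) with its 95% interval from limma (bars), coloured by role. The points lie between −0.30 and 0.11, and 26 of 27 intervals include 0, with Hadhb as the exception.

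The precision differed widely between genes. Standard errors of the log2 fold change ran from 0.06 for Cpt2 to 0.67 for Acadvl, with a median of 0.18 over the members and 0.11 over all genes. The spread over the 8 arrays was likewise wide, with a median log2 difference between the highest and the lowest array of 0.67 over the members and 0.44 over all genes. This range lay above the median of all genes for 19 of 27 members, and 4 members (Acadvl, Acaa2, Etfdh and Acadsb) lay between percentiles 90.2 and 98.6. Of the 13877 probes tested, 7159 were under 2 times the background limit on all arrays, where small folds are compressed. The same held for only 4 of 27 members. They were not compared with genes of like intensity, so the wider spread may not be particular to the members. Differences smaller than the intervals were not detectable with 5 and 3 arrays, and larger ones may have been missed too. The intervals are not adjusted for the number of probes tested, and Hadhb, whose interval excludes 0, was not called either.

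**Figure D2:**
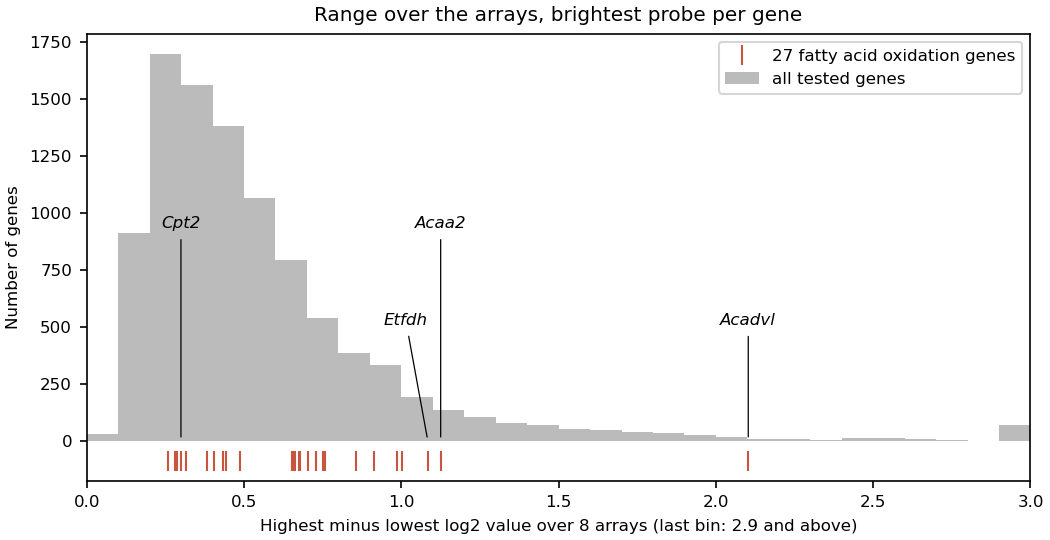
Histogram of the log2 difference between the highest and the lowest of the 8 arrays, on the corrected values, for all 9652 genes tested, with the members marked. The members have a median of 0.67 against 0.44 for all genes, and Acadvl stands farthest to the right at 2.10.

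The carnitine shuttle was represented by 4 tested genes, 1 with a log2 fold change above 0 and 3 below it. Cpt1a, the carnitine palmitoyltransferase of the outer membrane and the regulated entry step of the pathway, had 1 probe at 95.1 to 106 intensity units. That probe was above the background limit of 106.1 on no array, so Cpt1a was not tested. Its muscle form Cpt1b was near background, at 108 to 133 in Con and 113 to 126 in FKO.

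Cpt2 encodes the transferase of the inner membrane that returns the acyl group from carnitine to CoA. Its intensity was 1203, 1274, 1318, 1262 and 1279 in Con and 1215, 1180 and 1078 in FKO. FKO 2 and FKO 3 were the lowest arrays and FKO 1 lay above Con 1, so that the groups overlapped. The log2 fold change was −0.14 (± 0.06 SE, 95% interval −0.28 to 0.01). Unadjusted, the exact permutation test gave p = 0.0357 and limma p = 0.0654, and limma's adjusted p was 1. The smallest p that the 56 splits of the arrays into 5 and 3 allow is 0.0179.

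Slc25a20, the carrier that exchanges acylcarnitine for carnitine across the inner membrane, varied more. It read 720, 1037, 782, 962 and 1066 in Con and 1229, 698 and 1018 in FKO. The arrays Con 1, Con 3 and FKO 2 were the lowest, in both groups at once (log2 fold change 0.08 ± 0.21 SE, exact permutation p = 0.679). A dimmer Slc25a20 probe, ILMN_3061070, gave −0.05 with the same arrays lowest. Crat, a carnitine transferase for short acyl groups, ran the other way, with 684, 448, 675, 448 and 483 in Con and 525, 632 and 436 in FKO. For Crat these 3 arrays were the highest and all others were at most 525 (log2 fold change −0.03 ± 0.21 SE, exact permutation p = 0.857).

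**Figure D3:**
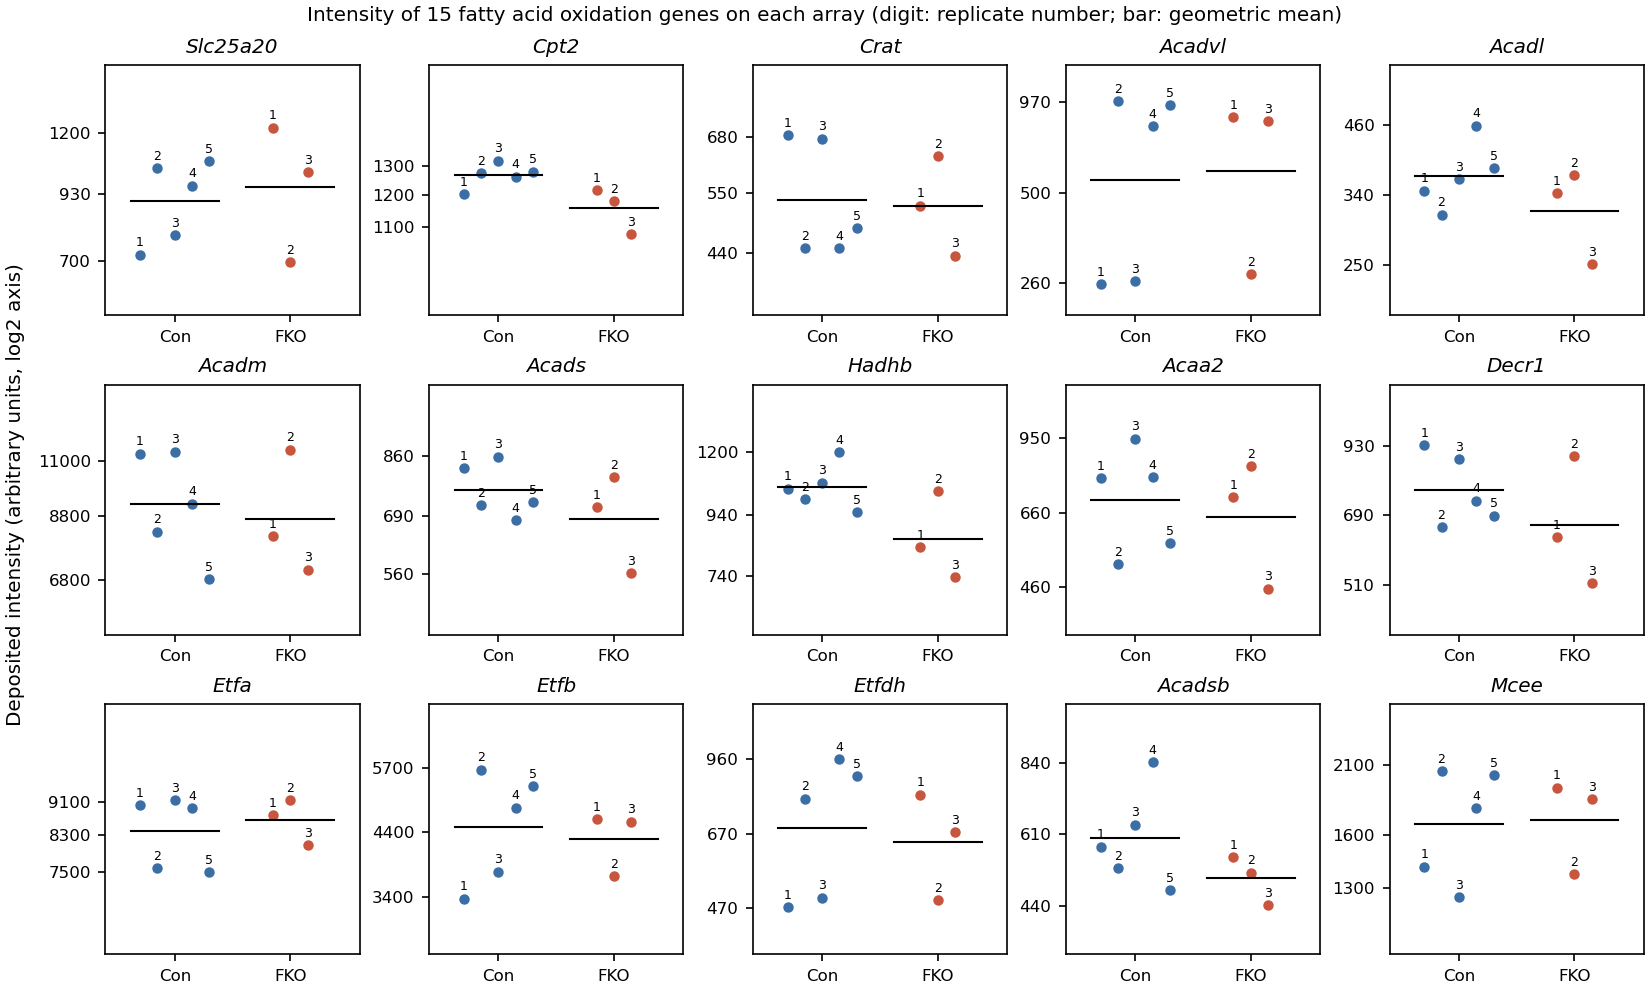
Intensity (arbitrary units, log2 axis) of members with a wide range or a small p on each array, by labelled group. Points are arrays with their replicate number and bars are the geometric mean of each group, and Acadvl separates into arrays at 257 to 277 and arrays at 812 to 973 within both groups.

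Acadvl, which encodes the very long-chain acyl-CoA dehydrogenase that takes the first oxidation of long fatty acids, had the widest range of all members. Its intensity was 257, 973, 264, 812 and 946 in Con and 869, 277 and 842 in FKO. Con 1, Con 3 and FKO 2 lay at 257 to 277 and the other 5 arrays at 812 to 973, with none between, and from lowest to highest the intensity differed 3.78-fold. The log2 fold change was 0.11 with a standard error of 0.67, a 95% interval from −1.42 to 1.63 and an exact permutation p of 0.804. On the corrected log2 values the range was 2.10, at the 98.6th percentile of all genes, whereas the 3.78-fold difference is that of the deposited intensities.

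The other straight-chain dehydrogenases had smaller ranges. With Acadvl counted, 2 of the 6 tested were positive, Acadvl and Acad10, and 4 negative. Acadm, the medium-chain enzyme, was bright, with 11316, 8250, 11408, 9243 and 6809 in Con and 8109, 11490 and 7082 in FKO. Con 1, Con 3 and FKO 2, the arrays on which Acadvl was lowest, were here the highest (log2 fold change −0.08 ± 0.21 SE, exact permutation p = 0.786). A dimmer Acadm probe, ILMN_1256019, read 2347, 1090, 2871, 1995 and 1449 in Con and 1654, 2520 and 961 in FKO, with the same 3 arrays on top. Its log2 fold change was −0.22.

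Acads, the short-chain enzyme, read 823, 720, 858, 680 and 727 in Con and 713, 796 and 560 in FKO. The same 3 arrays were again the highest and FKO 3 was the lowest (log2 fold change −0.16 ± 0.13 SE, exact permutation p = 0.321). Acadl, the long-chain enzyme, read 346, 311, 364, 459 and 381 in Con and 342, 370 and 252 in FKO. Here the order of the arrays was another one, with Con 4 highest and FKO 3 lowest (log2 fold change −0.25 ± 0.18 SE, exact permutation p = 0.321). Its other probes, ILMN_2783519 and ILMN_2735084, gave smaller log2 fold changes of −0.04 and −0.09. Their log2 ranges over the arrays were 0.32 and 0.28, against 0.99 for the brightest probe. Acad9, which is known also for the assembly of respiratory complex I, was at 291 to 440 (log2 fold change −0.02 ± 0.18 SE) with Con 1, Con 3 and FKO 2 highest. Acad10 was at 131 to 150 (0.01 ± 0.08 SE), and Acad11 is not analysed here because no probe of that name was found.

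The promoters of 4 members are shown because their genes mark both orders of the arrays: Acadvl, Etfdh and Etfb were lowest on Con 1, Con 3 and FKO 2, and Acadm was highest there. The sequences are RefSeq's for GRCm38.p6, from 250 bases before to 50 after the gene start, and 25 of 31 members had an entry. Each is written 5′ to 3′ on the strand of its gene, with motif matches on either strand in capitals. Acadvl lies at chr11:70015379-70015678 (minus strand), Etfdh at chr3:79628718-79629017 (minus), Etfb at chr7:43443822-43444121 (plus) and Acadm at chr3:153944594-153944893 (minus).
Acadvl: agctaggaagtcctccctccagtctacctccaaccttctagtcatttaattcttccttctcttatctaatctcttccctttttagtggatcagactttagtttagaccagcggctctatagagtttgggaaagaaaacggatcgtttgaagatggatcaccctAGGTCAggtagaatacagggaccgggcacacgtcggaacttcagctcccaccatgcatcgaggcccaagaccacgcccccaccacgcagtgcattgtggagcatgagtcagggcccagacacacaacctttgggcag
Etfdh: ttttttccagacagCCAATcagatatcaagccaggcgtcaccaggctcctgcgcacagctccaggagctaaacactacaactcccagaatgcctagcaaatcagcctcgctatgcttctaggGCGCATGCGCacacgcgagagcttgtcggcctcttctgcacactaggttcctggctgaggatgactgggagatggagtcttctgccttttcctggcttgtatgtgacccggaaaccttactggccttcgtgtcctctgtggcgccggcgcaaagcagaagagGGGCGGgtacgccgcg
Etfb: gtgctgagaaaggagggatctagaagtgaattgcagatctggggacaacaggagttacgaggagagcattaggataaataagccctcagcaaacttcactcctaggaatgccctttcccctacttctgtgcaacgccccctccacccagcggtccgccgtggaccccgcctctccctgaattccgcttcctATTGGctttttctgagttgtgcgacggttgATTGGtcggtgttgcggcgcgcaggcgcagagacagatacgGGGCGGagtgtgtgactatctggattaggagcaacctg
Acadm: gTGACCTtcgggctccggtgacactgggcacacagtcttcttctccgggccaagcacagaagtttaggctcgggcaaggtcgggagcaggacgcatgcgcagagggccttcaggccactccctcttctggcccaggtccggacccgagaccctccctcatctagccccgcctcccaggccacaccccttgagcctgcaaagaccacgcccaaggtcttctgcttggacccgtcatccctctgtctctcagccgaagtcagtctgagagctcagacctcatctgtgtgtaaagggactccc
AGGTCA, a half-site of nuclear receptors, occurred once in Acadvl and once in Acadm, on opposite strands, and not in the windows of Etfb and Etfdh. It was found in 5 of 25 members and in 16.255% of all 32851 promoters. The repeat of it with a spacer of 1 base between its copies, the usual PPAR element, was in 0 of 25 members and 0.04% of all promoters. The GC box GGGCGG was in 18 of 25 members against 35.658% of all, with 1 copy each in Etfb and Etfdh. CCAAT was in 12 of 25 against 37.408%, with 2 copies in Etfb and 1 in Etfdh. The palindromic consensus of the nuclear respiratory factor NRF1, which is the longest run of capitals in Etfdh, was in 2 of 25, Etfdh and Acad10, against 0.971%. A match describes letters in these windows and is not a measured site.

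The electron transfer genes carried both orders of the arrays. Etfdh, which passes electrons from the flavoprotein to ubiquinone, read 472, 793, 495, 957 and 882 in Con and 808, 490 and 676 in FKO. Con 1, Con 3 and FKO 2 were the only arrays at 472 to 495 (log2 fold change −0.10 ± 0.30 SE, exact permutation p = 0.768). Etfb, the β subunit of the flavoprotein, read 3376, 5661, 3761, 4860 and 5305 in Con and 4643, 3697 and 4592 in FKO. The same arrays were lowest (log2 fold change −0.07 ± 0.18 SE, exact permutation p = 0.732), and so they were with its other probe. Etfa, the α subunit that pairs with Etfb, varied little with its brightest probe, at 9016, 7587, 9131, 8942 and 7496 in Con and 8774, 9131 and 8072 in FKO. For this probe those arrays were the highest (log2 fold change 0.04 ± 0.09 SE, exact permutation p = 0.607), while its 3 other probes had no such order and gave log2 fold changes of −0.07 to −0.21.

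Of the enzymes that follow the first oxidation, Hadhb had the largest negative log2 fold change of all members. It encodes the β subunit of the trifunctional protein, which holds the thiolase for long chains. Its intensity was 1040, 999, 1064, 1197 and 950 in Con and 828, 1029 and 738 in FKO. FKO 1 and FKO 3 lay under all Con arrays and FKO 2 lay among them, so the groups overlapped. The log2 fold change was −0.30 (± 0.12 SE, 95% interval −0.58 to −0.02), with an unadjusted limma p of 0.038, an adjusted p of 1 and an exact permutation p of 0.0536. The same FKO arrays had epididymis marker sums of 8756 and 15518, and the part of this in the Hadhb values was not tested. Its partner Hadha, the α subunit, is not analysed here because no probe of that name was found.

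Acaa2, the thiolase for medium chains, read 781, 513, 947, 786 and 569 in Con and 713, 830 and 456 in FKO. Con 3 was highest and FKO 3 lowest, and the groups overlapped over most of this range (log2 fold change −0.13 ± 0.27 SE, exact permutation p = 0.661). The hydratase Echs1 was at 1806 to 2377 over all arrays (log2 fold change 0.05 ± 0.11 SE). Hadh, the dehydrogenase for medium and short chains, was at 147 to 173 (0.02 ± 0.09 SE).

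Decr1 reduces the conjugated double bonds that arise from polyunsaturated fatty acids. It read 933, 655, 878, 735 and 689 in Con and 628, 890 and 515 in FKO. Con 1, Con 3 and FKO 2 were the highest arrays at 878 to 933, and the log2 fold change was −0.24 (± 0.20 SE, exact permutation p = 0.339). Eci1, the isomerase that shifts double bonds of unsaturated acyl-CoA, was at 1248 to 1733 (log2 fold change −0.02 ± 0.12 SE). Acot2, a mitochondrial thioesterase, was near background at 116 to 131 (0.00 ± 0.08 SE), and its probes may also bind transcripts of the near-identical Acot1.

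The genes for branched-chain and propionyl-CoA steps were 4 positive and 3 negative. Acadsb, which oxidizes the acyl-CoA from isoleucine, read 575, 522, 635, 843 and 472 in Con and 549, 511 and 441 in FKO. Con 4 stood highest and FKO 3 lowest (log2 fold change −0.28 ± 0.19 SE, exact permutation p = 0.25). Ivd, for leucine, was at 891 to 1189 (0.11 ± 0.12 SE), and Acad8, for valine, at 176 to 217 (0.02 ± 0.12 SE). Hsd17b10, a dehydrogenase of isoleucine breakdown that is also part of mitochondrial RNase P, was at 1586 to 2489 (−0.15 ± 0.14 SE).

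Propionyl-CoA carboxylase is made of the products of Pcca and Pccb, and Mcee encodes the epimerase that follows it. Pcca read 598, 881, 640, 919 and 872 in Con and 889, 633 and 712 in FKO. Pccb read 607, 942, 619, 946 and 894 in Con and 906, 627 and 913 in FKO. Mcee read 1413, 2053, 1254, 1777 and 2020 in Con and 1926, 1373 and 1841 in FKO. All these genes were lowest on Con 1, Con 3 and FKO 2, within both groups, and for Pcca and Pccb this held with each of their probes. In log2 fold change they were at −0.07 ± 0.19 SE, 0.03 ± 0.22 SE and 0.02 ± 0.20 SE, with exact permutation p of 0.875, 0.804 and 0.911. The dimmer probes of Pcca and Pccb gave −0.09 and −0.20, for Pccb with the opposite sign. Mut, the mutase at the end of this branch, now named Mmut, had 1 probe at 94.3 to 101, above background on no array.

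Many members, across all roles but the hydration and thiolysis steps, had Con 1, Con 3 and FKO 2 at one end of their order. These 3 arrays were the lowest for 7 genes (25.9%): Acadvl, Slc25a20, Etfb, Etfdh, Pcca, Pccb and Mcee. They were the highest for 8 genes (29.6%): Acadm, Acads, Acad9, Crat, Cpt1b, Decr1, Etfa and Acot2, of which Cpt1b and Acot2 were near background. Over all 9652 genes the shares were 11.7% and 14.8%, and they were not taken over genes of like intensity. Markers of several cell types had such an order too. Of the endothelial markers, 5 of 7 were highest on these arrays. Their summed intensity was 3898, 3764 and 4319 on Con 1, Con 3 and FKO 2 against 2195 to 3236 on the others. Of 9 adipocyte markers, 3 were lowest there, Plin1, Cidec and Lipe. Of 5 tested brown and beige markers, Cox8b was lowest and Cidea was highest there. Elovl3 was highest there too, but it was near background, at 111 on each of these arrays. It passed the level filter only through them, so its order was set by the filter. The part of these markers in the members' values was not tested. No label sets these arrays apart. They were taken from an earlier account of these data, so the counts are a description with no test. Without these 3 arrays 0 members were called, and 21 of 27 had a negative log2 fold change with a median of −0.09. Over all probes the median was then −0.03. The FKO arrays left were FKO 1 and FKO 3, with epididymis sums of 8756 and 15518. The Con arrays left had 1264 to 2046, so label and epididymal transcripts cannot be told apart here.

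**Figure D4:**
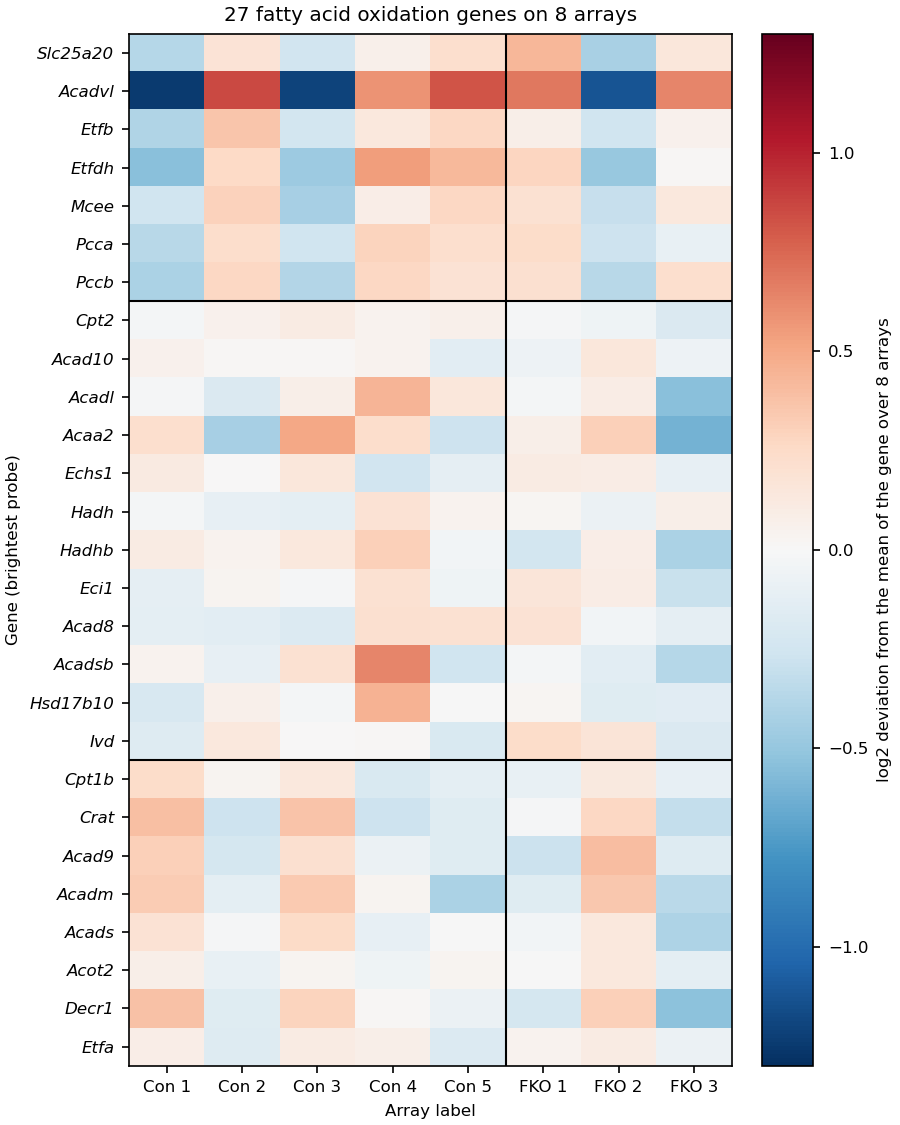
Deviation of each array from the mean over all 8 arrays on the log2 scale for the 27 genes, with a column per array. Lines part genes with Con 1, Con 3 and FKO 2 lowest (top), with another order (middle) and with these arrays highest (bottom). Acadvl, Etfdh, Etfb, Pcca, Pccb and Mcee are low and Acadm, Crat and Decr1 are high in the columns Con 1, Con 3 and FKO 2, whatever the label.

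FKO 3 was the lowest array for 10 of 27 members and the highest for 0, and Con 4 was the highest for 10. The same was not counted over all genes, so these counts may not be particular to the members. Each gene was set against its own mean, and the median of these deviations on an array was −0.01, 0.01, 0.04, 0.08 and −0.00 on the log2 scale in Con and 0.03, 0.09 and −0.12 in FKO. FKO 3 also had the lowest adipocyte marker sum (37314) and the highest epididymis sum (15518), and the part of either in these values was not tested. Leaving out Con 2, FKO 1 and FKO 3, in which an earlier account found epididymal transcripts, sets 4 Con arrays against FKO 2 alone, which is then assumed to vary like Con. The log2 difference of FKO 2 from these Con arrays was negative for 14 of 27 members, with a median of −0.04, and 0 were called.

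Together, 6 lists of neighbouring pathways held 68 tested genes, of which 0 were called, 22 lay above 0 and 46 below it in log2 fold change, and 7 had an unadjusted limma p under 0.05. These are 67.6% negative and 10.3% at that p, beside 56.6% and 4.68% of all genes. Con and FKO did not overlap for 3 of the 68 (4.4%, against 2.66% of all genes), which were Hnf4a, Slc25a32 and Fabp3. Genes of fatty acid activation and uptake were 6 positive and 7 negative (median −0.01), and transcriptional regulators 5 and 6 (−0.02). Ketone body and other PPAR-regulated mitochondrial genes were 2 and 6 (−0.06), branched-chain amino acid breakdown 4 and 8 (−0.05), peroxisomal oxidation 4 and 9 (−0.08), and other mitochondrial acyl-CoA enzymes 1 and 10 (−0.04).

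Slc22a5, the carnitine transporter of the plasma membrane, read 444, 535, 459, 461 and 448 in Con and 942, 427 and 1239 in FKO. Only FKO 1 and FKO 3, the arrays with epididymis sums of 8756 and 15518, were above 535, and FKO 2 was the lowest of all (log2 fold change 0.81 ± 0.31 SE, exact permutation p = 0.107). Acox3, a peroxisomal oxidase of branched chains, had the same arrays at its top, with 265, 247, 279, 239 and 226 in Con and 353, 252 and 526 in FKO (log2 fold change 0.60 ± 0.23 SE). Slc22a5 and Acox3 had an adjusted limma p of 1, and the part of the epididymal transcripts in either was not tested.

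Hnf4a, a nuclear receptor known for its role in liver, read 171, 172, 181, 209 and 129 in Con and 115, 118 and 128 in FKO. Con and FKO did not overlap, although Con 5 and FKO 3 were nearly equal and all values were low (log2 fold change −0.70 ± 0.18 SE, exact permutation p = 0.0357, adjusted limma p = 1). Slc25a32, a mitochondrial carrier of FAD or folate, did not overlap either, at 147 to 174 in Con and 136 to 144 in FKO (log2 fold change −0.19 ± 0.08 SE, exact permutation p = 0.0179, adjusted limma p = 1). Pdk4, the kinase that shuts pyruvate oxidation down and a known PPAR target, read 337, 363, 447, 425 and 371 in Con and 329, 345 and 259 in FKO. Here FKO 2 lay above Con 1, so the groups overlapped (log2 fold change −0.37 ± 0.14 SE, exact permutation p = 0.0714).

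Flad1 encodes the synthase of FAD, the cofactor of the acyl-CoA dehydrogenases and of the electron transfer proteins. It read 176, 367, 172, 331 and 374 in Con and 316, 180 and 314 in FKO. Its lowest arrays were Con 1, Con 3 and FKO 2, at 172 to 180 against 314 to 374 on the others (log2 fold change −0.03 ± 0.41 SE). The thioesterase Acot1 read 244, 329, 312, 333 and 141 in Con and 245, 149 and 228 in FKO (−0.42 ± 0.38 SE). Its low arrays were Con 5 and FKO 2, 1 in each group. Aldh6a1, an aldehyde dehydrogenase of valine breakdown, was highest on Con 4 at 1944 and otherwise at 769 to 1499 (−0.04). Fabp3, a cytosolic fatty acid binding protein named because its groups did not overlap, was near background at 115 to 148 in Con and 110 to 114 in FKO (−0.18 ± 0.13 SE, exact permutation p = 0.232). Dld, the lipoamide dehydrogenase, and the peroxisomal oxidase Acox2 were at −0.21 ± 0.09 SE and −0.33 ± 0.10 SE.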

How the data were processed

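RNA of pgWAT from 8 male mice was hybridised to MouseRef-8 v2.0 arrays of Illumina, and the labels gave each array its group (5 Con, 3 FKO). The authors quantile-normalized the intensities before they deposited them; software and background steps are not given in the sources used here. The table of non-normalized signals has 16 columns that match no sample by name, and it was left out. Of 25697 probes, 23978 carry 1 symbol, 0 several and 1719 none, and 23962 match the reference by Entrez ID. The background limit of 106.1 was set by mirroring the 1st percentile of the values below their mode, 98.5. On each array 51.5% to 51.6% of probes exceed it. Precision is limited by how few arrays there are.

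After normexp correction with an offset of 50 and quantile normalization, log2 values were fitted in limma 3.58.1 (R 4.3.3) with lmFit and eBayes, group being the sole term. Probes entered when at least 3 arrays exceeded the limit. The two-sided p-values were adjusted by Benjamini-Hochberg over all 13877 probes, and a gene is given by its brightest tested probe. Exact permutation tests covered 56 splits, and p-values reflect the spread among the sampled mice alone. The methods' t-test assumed equal variances.

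The members and lists were chosen with earlier results of these data known. Values array by array are given for Ogt, the 12 members of widest range, the 5 of smallest p, their partner subunits and, per neighbouring list, the gene of widest range and that of smallest p. Pcca, Pccb, Fabp3, Alas2, Cd163, Ucp1 and the dimmer Acadm probe were added after their values were seen. So were Plin1, Cidec, Lipe, Cox8b, Cidea, Elovl3 and the further probes of Acadl, Slc25a20, Pcca, Pccb and Adgre1. Alternatives were no background correction, an offset of 16, median centring, other level filters, trended and robust eBayes, array weights, the replicate number as a block, the methods' t-test, the mean over a gene's probes, and subsets of the arrays. The code was tested on simulated data. Samples with the same replicate number did not deviate together (correlations −0.56, −0.70 and −0.41). Figures were drawn with matplotlib 3.10.9.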

Additional observations from a re-analysis of the deposited data

Results flagged for a closer look

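Acad10, a dehydrogenase of the acyl-CoA family, stood at 131 intensity units on Con 5, while the other Con arrays lay between 141 and 144. The gap to the nearest array was 0.767 of the range in Con, above the critical value of 0.71 for 5 samples. All 27 tested members were looked at in this way and 1 was marked, where chance marks about 1 in 20. All Acad10 values were under 2 times the background limit.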

How the results depend on the processing

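No member was called under any alternative run, and the smallest adjusted p of a member was 0.156, without FKO 2, where it otherwise ranged from 0.401 to 1. The number of members with a negative log2 fold change ranged from 14 to 21 of 27, or 34 of 49 over all tested probes of the members, and their median from −0.10 to −0.01. The stricter level filter tested fewer than 27 members, because it drops those under 2 times the background limit. Over all 13877 probes, the number called was 1 by the methods' t-test, 1 without Con 1, Con 3 and FKO 2, and 0 to 193 when 1 array was left out, with 193 without FKO 2 and 15 without Con 5. The cause was not tested. The replicate block, whose numbers are not said to pair the mice, gave 0 calls. Of 315 values for named members under alternatives, 280 kept their sign and their side of the threshold and 35 changed sign, none of them called. With array weights the log2 fold change was 0.19 for Etfdh and 0.062 for Etfb, and with the replicate block 0.19 and 0.045. Without Con 1, Con 3 and FKO 2 it was −0.090 for Acadvl, −0.048 for Mcee and 0.064 for Crat. Without Con 2, FKO 1 and FKO 3, which leaves FKO 2 as the single FKO array, the difference of FKO 2 from 4 Con arrays was −0.86 for Acadvl, 0.14 for Acaa2, 0.16 for Decr1, −0.34 for Slc25a20, 0.28 for Acadm, −0.21 for Mcee, 0.18 for Crat and 0.054 for Acads. As the mean of its probes Etfa was at −0.092. Leaving out 1 array at a time gave −0.20 to 0.70 for Acadvl, −0.10 to 0.32 for Slc25a20, −0.086 to 0.18 for Mcee, −0.18 to 0.11 for Crat, −0.18 to 0.037 for Etfb, −0.28 to 0.11 for Etfdh, −0.32 to 0.14 for Acaa2 and −0.29 to 0.065 for Acadm. Negative whichever single array was left out were Hadhb, at −0.44 to −0.19, Acadsb, at −0.37 to −0.15, and Cpt2, at −0.17 to −0.084. So were Decr1, at −0.47 to −0.047, Acadl, at −0.38 to −0.057, and Acads, at −0.28 to −0.0098. Of the members, 4 were under 2 times the background limit on all arrays, where small folds are compressed, and of 16 members with several tested probes 5 had probes that differ in sign.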

Other observations

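Of the 68 tested genes of neighbouring pathways, 11 (16.2%) had Con 1, Con 3 and FKO 2 as the lowest and 9 (13.2%) as the highest arrays, near the 11.7% and 14.8% of all genes. The following were chosen after their values were seen. Bckdk, the kinase that inactivates branched-chain ketoacid dehydrogenase, was at 304, 319 and 301 on Con 1, Con 3 and FKO 2 and at 471 to 629 on the other arrays. Bcat2, the mitochondrial branched-chain aminotransferase, was at 412, 392 and 406 on these arrays and at 218 to 305 on the others. Acot13, a thioesterase, was at 2268, 2130 and 2213 there and at 1310 to 1482 elsewhere. The peroxisomal thiolase gene Acaa1a was at 7925, 8072 and 7925 there and at 6004 to 7271 elsewhere. No label sets these arrays apart, and the order was not tested.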
